A study of Mus musculus with 8 samples.

Results

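Maf, Mef2c, Cebpa, Cebpb, Spi1, Irf8, Zeb2, Klf4 and Klf2 encode transcription factors known for setting up or maintaining the gene programmes of macrophages and other myeloid cells. All 9 genes were chosen by symbol and were found once each among the 27998 genes of the count matrices. The counts came from single-cell RNA sequencing of left ventricles of male C57BL/6 mice aged 10 to 12 weeks, 6 h after sham surgery or ischemia–reperfusion (IR), in which the left anterior descending artery was tied for 30 min and then released. The records list 4 samples per condition, with cells of 3 hearts pooled into a sample, and they label the sham samples 0 h while the methods place both groups at 6 h. Neither group carried a stated allele or drug.

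Each condition was deposited as 1 matrix, and no cell can be traced to a sample. Differences between sham and IR therefore compare 2 libraries without replicates, and no test of them was made. The sham matrix held 11620 barcodes with 58653308 unique molecular identifiers (UMIs, 1 per captured transcript), and the IR matrix held 8539 with 75033226. After filtering, 11377 sham and 8260 IR cells remained, with medians of 4649 and 6636 UMIs. The IR cells were thus the more deeply sampled, and 30 barcode sequences occurred in both matrices. Levels are given as UMIs of a gene per 1000000 UMIs of a class (CPM), and intervals are exact 95% intervals that cover counting error only. CPM values are compared within a gene and never between genes, and a lower CPM of a class does not separate less RNA per cell from fewer cells that make it.

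Cells were placed in classes by counting markers with at least 1 UMI, none of which was among the 9 genes. The class names mean that a cell carried the markers of that type and nothing more. Resident macrophages carried at least 4 of 12 markers such as C1qa, Mertk and Lyve1, and there were 3043 in sham and 837 in IR. There were 138 and 766 monocytes (4 of 8 markers, such as Ly6c2 and Ccr2), 138 and 88 nonclassical monocytes (3 of 6, such as Ace and Treml4) and 226 and 2152 neutrophils (5 of 8, such as S100a8 and Csf3r). Dendritic cells were few, with 53 in sham and 26 in IR. The other classes compared were B cells, T cells, natural killer (NK) cells, fibroblasts, endothelial cells and mural cells, the last being pericytes and smooth muscle cells. Cells passing the macrophage and the monocyte panel alone, 40 in sham and 176 in IR, were kept apart, and 1344 sham and 1237 IR cells with other mixtures of panels were left out. In each class that was compared, every marker of the panel was found in over 10% of cells, except in dendritic cells, where this held for 6 of 10 markers in sham and 9 of 10 in IR.

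As background, SPI1 (PU.1) opens chromatin at myeloid genes, and its amount relative to partner factors helps to direct progenitors toward macrophages, granulocytes or lymphocytes. The C/EBP proteins work beside it, C/EBPα in early commitment and C/EBPβ in mature monocytes, macrophages and inflammatory responses. IRF8 directs progenitors toward monocytes and dendritic cells and away from neutrophils. MAF and ZEB2 are known for maintaining tissue macrophages, whereas KLF2 and KLF4 are related zinc-finger proteins that restrain inflammatory activation in endothelium and myeloid cells. MEF2C is a MADS-box factor known from muscle, B cells and microglia, and MEF2 proteins drive Klf2 and Klf4 in endothelium.

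Reference promoter sequences are shown for 3 members with large differences between classes or libraries. They were searched for motifs of transcription factors, some but not all of them in the same set. Each is the 250 bases before the annotated start, taken from RefSeq on GRCm38.p6, and capitals mark matches found on either strand. In Klf2 they mark a MEF2 site (CTA and TAG with any 4 bases between) and, next to the start, a KLF box (CCACCC or its complement), in Irf8 they mark 2 GAS elements (TTCNNNGAA), which STAT proteins bind, and the Klf4 window held none of the motifs searched.
Klf2, chr8:72318812-72319061, plus strand: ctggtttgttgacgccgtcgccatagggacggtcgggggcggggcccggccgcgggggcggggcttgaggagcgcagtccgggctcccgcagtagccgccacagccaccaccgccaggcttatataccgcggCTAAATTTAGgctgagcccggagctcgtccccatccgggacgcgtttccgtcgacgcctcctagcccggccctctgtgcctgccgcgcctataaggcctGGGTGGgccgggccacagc
Klf4, chr4:55532476-55532725, minus strand: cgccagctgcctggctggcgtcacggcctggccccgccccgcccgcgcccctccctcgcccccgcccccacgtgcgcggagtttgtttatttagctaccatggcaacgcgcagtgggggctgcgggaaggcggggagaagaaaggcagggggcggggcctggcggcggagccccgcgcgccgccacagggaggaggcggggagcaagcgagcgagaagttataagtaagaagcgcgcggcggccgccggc
Irf8, chr8:120736108-120736357, plus strand: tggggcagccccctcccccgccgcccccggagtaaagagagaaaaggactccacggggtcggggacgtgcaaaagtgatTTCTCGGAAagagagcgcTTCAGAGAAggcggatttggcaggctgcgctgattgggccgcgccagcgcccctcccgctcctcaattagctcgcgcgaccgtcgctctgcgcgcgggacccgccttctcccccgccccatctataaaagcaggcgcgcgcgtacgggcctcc

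A MEF2 site was found in 3.20% of all 32817 annotated promoter windows of this length, a GAS element in 7.01% and a KLF box in 28.1%. The other motifs searched were the C/EBP site TTGCNNAA (9.57% of windows), the SPI1 core GAGGAAG (10.6%), the E-box CACCTG that ZEB proteins bind (17.2%) and the cyclic AMP response element TGACGTCA (1.55%). In Klf2 the MEF2 match began 118 bases and the KLF box 19 bases before the start. The GAS matches of Irf8 began 171 and 153 bases before it. Among the other members, the first windows of Mef2c, Cebpa and Cebpb each held a KLF box, and that of Mef2c also a GAS element. Of the 4 windows of Zeb2, 3 held an SPI1 core, of which 2 overlap and share it together with a GAS element, 1 held a KLF box and 1 a C/EBP site. A later window of Mef2c held an SPI1 core and another a KLF box, and a later window of Irf8 held the E-box. RefSeq windows were matched for 7 of the 9 members, not for Maf and Spi1. A match is a run of letters and does not show that a factor binds there.

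On GRCm38, Klf2 (8:72319033-72321656), Irf8 (8:120736358-120756694) and Maf (8:115682942-115707794, minus strand) lie on chromosome 8. Spi1 (2:91082390-91115756), Cebpb (2:167688915-167690418) and Zeb2 (2:44983632-45117395, minus strand) lie on chromosome 2. Mef2c (13:83504034-83667080), Cebpa (7:35119293-35121928) and Klf4 (4:55527143-55532466, minus strand) lie on their own. All 9 are annotated as protein-coding, and none of the positions overlap.

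The levels of the 9 genes across these classes did not single out the resident macrophage as their common peak. Classes with at least 50 cells in a library were ranked. In IR this left out the 26 dendritic cells and took in the 176 cells passing both the macrophage and the monocyte panel, which were highest for no member. In sham, resident macrophages had the highest level of 2 members, Maf and Cebpa, and in IR of 3, with Klf2 added. Neutrophils had the highest Cebpb in both libraries, nonclassical monocytes the highest Zeb2, B cells the highest Mef2c and NK cells the highest Irf8. Klf4 was highest in fibroblasts in sham and in endothelial cells in IR. The 40 sham cells passing both the macrophage and the monocyte panel were too few to be ranked. Their Cebpa, at 178 CPM (136 to 229), was above that of resident macrophages. Their Zeb2, at 732 CPM (644 to 829), was above that of nonclassical monocytes with overlapping intervals. Klf4 in IR endothelial cells overlapped with that in IR macrophages, and Klf2 in IR macrophages overlapped with that in IR T cells. All 9 genes were found in sham macrophages, each in 39.5% of the cells or more.

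**Figure D1:**
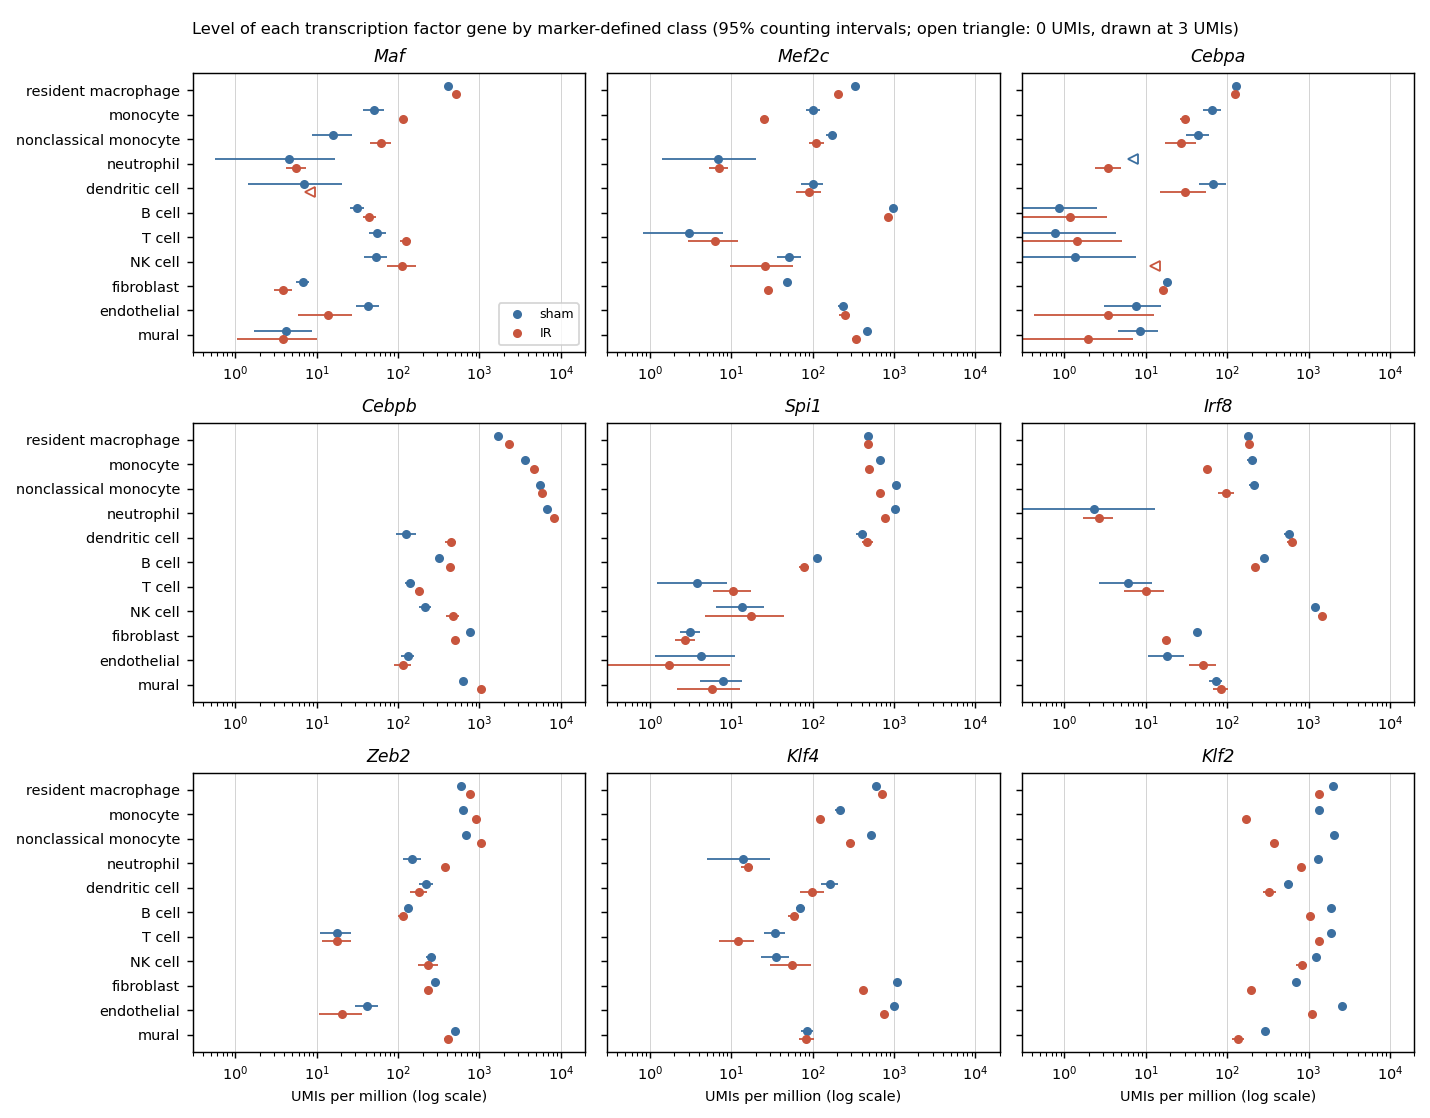
Levels of the 9 genes (CPM, log axis) in 11 classes of cells in the sham and IR libraries, with exact 95% counting intervals as bars. Maf and Cebpa are highest in resident macrophages, Cebpb in neutrophils, Mef2c in B cells and Irf8 in NK cells in both libraries.

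Spi1, the pioneer factor of the myeloid lineage, was found in every myeloid class. Its sham level was 1045 CPM (978 to 1115) in nonclassical monocytes and 1033 CPM (939.5 to 1134) in neutrophils, whose intervals overlapped. Monocytes had 672 CPM, resident macrophages 477 CPM (466 to 488) and dendritic cells 401 CPM (343 to 466). Outside the myeloid cells it was 115 CPM in B cells, where it is known to be made at low level, and at most 13.6 CPM in T, NK, fibroblast, endothelial and mural cells. Spi1 was found in 84.8% of sham macrophages (83.5 to 86.1, median 4727 UMIs per cell) and in 1.44% of sham fibroblasts (1.06 to 1.91, median 5164 UMIs), which are not known to make it.

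Cebpb, the C/EBP member of mature and inflammatory myeloid cells, separated the myeloid classes. The order in sham was neutrophils at 6744 CPM (6502 to 6993), nonclassical monocytes at 5523 CPM, monocytes at 3596 CPM and resident macrophages at 1713 CPM (1692 to 1733), with no overlap of neighbouring intervals. In IR the order was the same, with 8287, 5892, 4682 and 2301 CPM. Dendritic cells stood apart from the other myeloid cells at 127 CPM (95.1 to 165), below fibroblasts (764.5 CPM) and mural cells (619.8 CPM). Cebpa ran the other way. Resident macrophages had 130 CPM in sham (124 to 135), dendritic cells 68.0, monocytes 66.1 and nonclassical monocytes 43.5 CPM. Neutrophils had 0 UMIs of Cebpa in sham, which is 6.93 CPM if that count is set to 3 UMIs, and 31 UMIs (3.47 CPM) in IR.

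Irf8 marked cells with and without a myeloid origin. NK cells had 1205 CPM (1127 to 1288) in sham, dendritic cells 570 CPM (500.2 to 646), B cells 286 CPM, and nonclassical monocytes, monocytes and resident macrophages 214, 200.4 and 180.3 CPM. The intervals of the last 3 overlapped between neighbours. In neutrophils, which IRF8 is known to hold back during development, there was 1 UMI in sham and 24 in IR (2.68 CPM). Irf8 was found in 52.2% of sham macrophages (50.4 to 53.9) and 0.442% of sham neutrophils (0.0112 to 2.44), although the median neutrophil had only 1612.5 UMIs against 4727 in macrophages. In dendritic cells the transcripts were concentrated, with 243 UMIs in 34.0% of 53 cells, and the class pools several kinds of dendritic cell.

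Maf, known for the tissue macrophage programme, was largely found in resident macrophages. Its sham level was 415 CPM (405 to 425) in resident macrophages and at most 55.8 CPM in the other 10 classes. The 40 sham cells passing both panels had 114 CPM (80.9 to 156). T cells, in which MAF is known to work in helper subsets, had 55.8 CPM, NK cells 53.2 CPM and monocytes 50.6 CPM, and these intervals overlapped. Nonclassical monocytes had 16.0 CPM (8.77 to 26.9) and neutrophils 2 UMIs (4.62 CPM). It was found in 73.1% of sham macrophages and in 3.09% of sham fibroblasts (2.52 to 3.74). To set the low values against free RNA, the Maf level was computed that a class would show if all its macrophage-panel UMIs had come with Maf in the macrophages' own proportion. This gave 11.1 CPM in sham monocytes, against 50.6 measured, and 5.18 CPM in sham neutrophils, against 4.62 measured, so the neutrophil value was at that background.

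Zeb2, a zinc-finger repressor needed by tissue macrophages, was spread more evenly. Nonclassical monocytes had 681 CPM, monocytes 622 CPM and resident macrophages 591 CPM (580 to 604) in sham, and neighbouring intervals overlapped. Mural cells came next at 501 CPM, fibroblasts had 283 CPM, NK cells 255 CPM and neutrophils 150.2 CPM (116 to 192). Mef2c was highest in B cells, where it is known to act in antigen receptor signalling, at 967 CPM in sham, followed by mural cells at 467 CPM and resident macrophages at 328 CPM (319 to 337). Monocytes had 101 CPM of it, neutrophils 3 UMIs (6.93 CPM) and T cells 4 UMIs (3.06 CPM).

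Klf4 and Klf2, relatives with overlapping targets, peaked outside the leukocytes in sham. Klf4 was 1092 CPM in fibroblasts (1077 to 1108), 995 CPM in endothelial cells and 597 CPM in resident macrophages (585 to 609). Nonclassical monocytes had 522 CPM, monocytes 215 CPM and neutrophils 13.9 CPM. Klf2 was 2577 CPM in endothelial cells (2475 to 2682), where it is known to respond to blood flow. It was 2075 CPM in nonclassical monocytes, 1973 CPM in resident macrophages, 1872 CPM in T cells and 1866 CPM in B cells. Of these, nonclassical monocytes and macrophages overlapped, as did T and B cells, and fibroblasts (701 CPM), dendritic cells (567 CPM) and mural cells (295 CPM) had less. In contrast to Klf4, Klf2 was abundant in lymphocytes, in which it is known to maintain the resting state.

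Resident macrophages were then compared directly with monocytes and neutrophils, the classes that enter the injured heart from blood. Against monocytes in sham, 4 of the 9 members were past 2-fold, where 29.8% of all 10120 genes compared were. Maf was higher in macrophages (log2 ratio 3.04, 2.63 to 3.47), as were Mef2c (1.70) and Klf4 (1.47, 1.27 to 1.68), and Cebpb was lower (−1.07, −1.12 to −1.02). Irf8 (−0.15, −0.36 to 0.07) and Zeb2 (−0.07, −0.19 to 0.05) had intervals that held 0. Most of these monocytes, 73.9%, fell in a cluster named nonclassical monocyte when the cells were clustered. With classes taken from clusters, only 41 sham cells were monocytes, Maf then differed by 4.15 and Klf2 by 1.37, and Cebpb (−0.78) was no longer past 2-fold.

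In IR, 7 of the 9 members were past 2-fold between macrophages and monocytes, against 33.4% of all 10008 genes. Higher in macrophages were Mef2c (3.01, 2.80 to 3.21), Klf2 (2.99, 2.91 to 3.07), Klf4 (2.53), Maf (2.18), Cebpa (2.05) and Irf8 (1.72, 1.57 to 1.86). Cebpb was lower in macrophages by almost the same ratio as in sham (−1.02). Spi1 was 481 CPM in macrophages and 497 CPM in monocytes, with overlapping intervals (log2 ratio −0.05, −0.11 to 0.02). The nonclassical monocytes of the IR library differed less from macrophages in Mef2c (0.89), Irf8 (0.95) and Klf2 (1.84).

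Against neutrophils the set fell into a part that neutrophils nearly lacked and a part they shared. In sham 8 of 9 members were past 2-fold, where 57.4% of all genes were, and in IR 7 of 9, where 72.2% were. Neutrophils of the IR library held Maf, Mef2c, Cebpa and Irf8 at 2.68 to 7.05 CPM and Klf4 at 15.9 CPM. The ratios of macrophages to them ran from 4.87 for Mef2c (4.51 to 5.26) to 6.55 for Maf (6.14 to 6.98) on the log2 scale. In sham, where neutrophils had no Cebpa UMI, the macrophage level was higher by 4.22 on that scale with that count set to 3 UMIs. Irf8, of which sham neutrophils had 1 UMI, was higher in macrophages by 6.29 (3.81 to 11.59). Zeb2 was 1.98 higher in sham macrophages and 1.06 higher in IR macrophages. Cebpb (−1.85 in IR) and Spi1 (−0.68) were lower in macrophages than in neutrophils, and Klf2 (0.73) was higher by less than 2-fold.

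**Figure D2:**
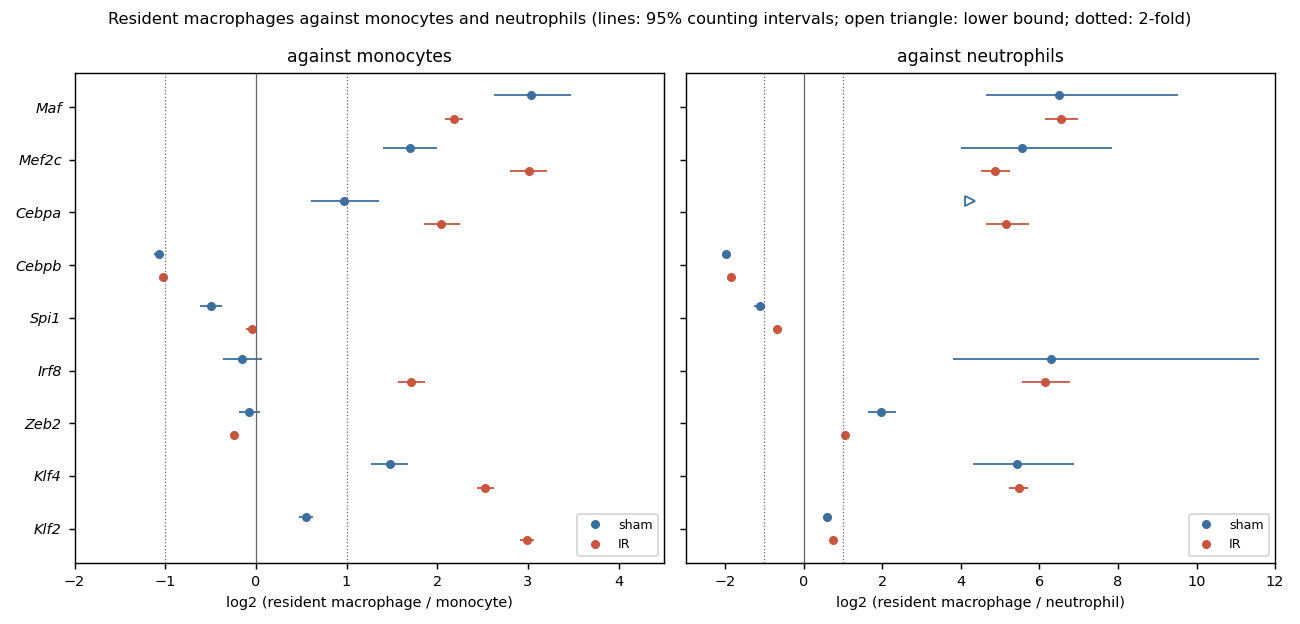
Log2 ratios of CPM of the 9 genes in resident macrophages over monocytes and over neutrophils, in sham and in IR, with exact 95% counting intervals; lines mark 2-fold. Maf, Mef2c and Klf4 lie above the upper line in all 4 comparisons, and Cebpb lies below the lower line in all 4.

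Between IR and sham, resident macrophages kept all 9 genes within 2-fold, where 18.4% of all 10838 genes compared were past it. Cebpb was 2301 CPM in IR and 1713 CPM in sham (log2 ratio 0.43, 0.40 to 0.45), Zeb2 777 and 591 CPM (0.39, 0.35 to 0.44), Maf 523 and 415 CPM (0.33, 0.28 to 0.39) and Klf4 704 and 597 CPM (0.24). The lower ones were Mef2c, 206 CPM in IR and 328 CPM in sham (−0.67, −0.75 to −0.59), and Klf2, 1354 and 1973 CPM (−0.54, −0.57 to −0.51). Spi1 was at 481 and 477 CPM, Irf8 at 188 and 180.3 CPM and Cebpa at 124 and 130 CPM, and the intervals of their ratios held 0. The median over all genes was 0.12, against 0.06 over the members. The macrophages of the libraries lay in different clusters, with 90.8% of those in IR in a single cluster and 56.0% and 40.4% of those in sham in another pair.

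Neutrophil transcripts in other classes differed between the libraries, in both directions. The 8 neutrophil markers together had 481 CPM in IR macrophages and 71.7 CPM in sham ones, and in B cells, which should lack them, 1071 and 56.9 CPM. They were also higher in IR in T, NK, endothelial and nonclassical monocyte classes, and lower in IR in monocytes (896 against 1230 CPM), fibroblasts (512 against 796 CPM) and mural cells (754 against 971 CPM). If all those UMIs had come with Cebpb in the proportion seen in neutrophils, they would account for 26.9 of the 2301 CPM of Cebpb in IR macrophages. In IR B cells they would account for 59.9 of 433 CPM.

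In monocytes 5 of the 9 members were past 2-fold between the libraries, 1 higher and 4 lower in IR, where 28.3% of all 8569 genes were, 13.0% higher and 15.3% lower. Klf2 was 1345 CPM in sham (1273 to 1420) and 170.4 CPM in IR (162 to 179), which is 7.89-fold lower (log2 ratio −2.98, −3.09 to −2.87). It was found in 92.0% of sham monocytes (86.2 to 96.0) and 48.2% of IR monocytes (44.6 to 51.8), although the IR cells were deeper (median 11969 against 6588.5 UMIs). At an equal 1000 UMIs per cell the shares were 60.9% and 13.2%, while Klf2 in T cells at that depth was found in 76.2% and 63.8%. Mef2c was 101 CPM in sham and 25.6 CPM in IR (−1.98, −2.33 to −1.62), Irf8 200.4 and 57.4 CPM (−1.80, −2.05 to −1.56), and Cebpa 66.1 and 30.0 CPM (−1.14, −1.54 to −0.72). Maf was the member higher in IR, at 115 against 50.6 CPM (1.19, 0.77 to 1.63). The level that macrophage-panel UMIs would bring along was 11.7 CPM in the IR monocytes, and 11.1 CPM in the sham ones.

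The remaining members differed less in monocytes. Klf4 was 215 CPM in sham and 122 CPM in IR (−0.82), Spi1 672 and 497 CPM (−0.44), Zeb2 622 and 916 CPM (0.56) and Cebpb 3596 and 4682 CPM (0.38). Of the monocytes, 90.5% of those in IR fell in the cluster named monocyte and 16.7% of those in sham did, and a shift of the library cannot be told apart from a change in which cells made up the class. With classes taken from clusters, the log2 ratio was −1.88 for Klf2, −1.38 for Mef2c, −1.23 for Irf8 and 2.61 for Maf, and under the stated upper limit of 2500 genes per cell it was −2.85 for Mef2c.

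The libraries were also compared in monocytes chosen by marker genes for a state. This choice does not match the cells, whose median was 6483 UMIs in sham and 10798.5 in IR. A change in which cells made up the group cannot be told apart here either. Thbs1, Arg1, Saa3 and Fn1 are a set seen in recruited monocytes. Monocytes with at most 1 of them and at least 3 of Ly6c2, Plac8, Ms4a4c and Ccr2 numbered 95 in sham and 50 in IR. In these, Klf2 was 1525 CPM in sham and 293 CPM in IR (−2.38, −2.65 to −2.12), Irf8 236 and 85.0 CPM (−1.47) and Mef2c 123 and 55.3 CPM (−1.15). Maf, however, was 61.4 CPM in sham and 46.8 CPM in IR (−0.39, −1.22 to 0.40), and Zeb2 619 and 640.0 CPM (0.05). Cebpa was 75.9 CPM in sham and 36.1 CPM in IR. Thus 4 of the 9 members were past 2-fold lower and none higher in this comparison. Over all genes, 23.2% were past 2-fold in either direction.

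Within the IR monocytes, Maf followed that set, though only the 50 cells above had also been chosen by Ly6c2, Plac8, Ms4a4c and Ccr2. It was 139 CPM in the 419 cells with at least 3 of the set's genes and 46.8 CPM in those 50 (log2 ratio 1.57, 0.96 to 2.25). Mef2c (−1.66) and Klf2 (−1.05) were lower in the former, and these 3 members were past 2-fold where 14.0% of all genes were. The cells that passed both the macrophage and the monocyte panel in IR, 176 in number, lay between these classes in several members. They had 274 CPM of Maf, 4196 CPM of Cebpb, 230 CPM of Klf2 and 54.7 CPM of Irf8, so Irf8 was at the monocyte level and Maf between the 2 classes. Zeb2, at 1030 CPM, was above both classes, and Spi1, at 445 CPM, was below both, with an interval that overlapped with that of macrophages. Whether these cells are single cells in transition or droplets that caught a pair of cells was not tested.

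In nonclassical monocytes Klf2 and Irf8 were past 2-fold lower in IR, as in monocytes. Of the sham monocytes, 73.9% lay in the cluster named nonclassical monocyte. The sham cells of these classes were thus alike in large part, and this is not a separate repeat. Klf2 was 2075 CPM in sham and 377 CPM in IR (−2.46, −2.64 to −2.29), Irf8 214 and 97.7 CPM (−1.13) and Maf 16.0 and 61.8 CPM (1.95, 1.07 to 2.92), so 3 of 9 were past 2-fold against 18.7% of all genes. Macrophage-panel UMIs would bring 9.94 of those 16.0 CPM of Maf in sham and 7.68 of the 61.8 CPM in IR. In neutrophils, 7 members could be compared and only Zeb2 was past 2-fold, where 30.6% of all genes were. Zeb2 was 150.2 CPM in sham and 373 CPM in IR (1.31, 0.96 to 1.69). At 1000 UMIs per cell, 13.6% of sham and 28.8% of IR neutrophils had a UMI of it, against 2.46% and 2.44% of T cells. The neutrophils of the libraries also differed in cluster, with 72.6% of those in sham in one cluster and 67.4% of those in IR in another. Among neutrophils with at most 1 of the activation genes Cxcl3, Spp1, Ccl3 and Ccl4, 191 in sham and 310 in IR, Zeb2 was 148 and 254 CPM (0.78, 0.35 to 1.23), so the difference was smaller there. Klf2 was 1301 and 814.5 CPM (−0.68) and Spi1 1033 and 769 CPM (−0.43) in all neutrophils.

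Across the 10 classes with at least 50 cells in both libraries, Klf2 was lower in IR in 10 and past 2-fold in 5. Those 5 were monocytes, nonclassical monocytes, fibroblasts, endothelial cells and mural cells, where 15.3%, 10.1%, 15.5%, 8.30% and 9.32% of all genes were past 2-fold lower. Its level was 2577 CPM in sham and 1107 CPM in IR in endothelial cells (−1.22), 701 and 199 CPM in fibroblasts (−1.81), 295 and 137 CPM in mural cells (−1.11) and 1866 and 1036 CPM in B cells (−0.85). The smallest difference was in T cells, with 1872 and 1331 CPM (−0.49, −0.58 to −0.41). Klf4 did not follow in every class. It was 1092 and 412 CPM in fibroblasts (−1.41, −1.45 to −1.37) and 34.4 and 12.1 CPM in T cells (−1.51), but higher in IR in resident macrophages. Fibroblasts and B cells lay in different clusters as well, with 99.2% of sham fibroblasts in one cluster and 59.0% and 38.8% of IR fibroblasts in another pair, and 94.9% of sham and 95.1% of IR B cells in separate ones. Of the fibroblasts' members 3 of 9, Klf2, Klf4 and Irf8 (−1.25), were past 2-fold where 26.1% of all genes were, and none of the 8 compared in B cells, where 7.85% were. Of those compared, 2 of 5 were past 2-fold in T cells (8.13% of all genes), 4 of 7 in endothelial cells (15.4%) and 1 of 6 in mural cells (15.2%).

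Cebpb was higher in IR in 8 of the 10 classes. In NK cells it was 215 CPM in sham and 469 CPM in IR (1.12, 0.76 to 1.49) and in mural cells 619.8 and 1045 CPM (0.75). In fibroblasts it was lower, at 503 against 764.5 CPM (−0.60). Maf (113 and 53.2 CPM, 1.09) was the other member past 2-fold in NK cells, so 2 of 7 were, where 21.9% of all genes were. Free neutrophil RNA would account for 40.8 of the 469 CPM in IR NK cells. Dendritic cells, with 26 cells in IR, had 444 CPM of Cebpb against 127 CPM in sham (1.81, 1.36 to 2.28). Past 2-fold were 2 of 8 members, Cebpb and Cebpa (−1.16), where 17.9% of all genes were. Their Irf8 was 618 and 570 CPM (0.12, −0.15 to 0.39), which differed by less than counting error.

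**Figure D3:**
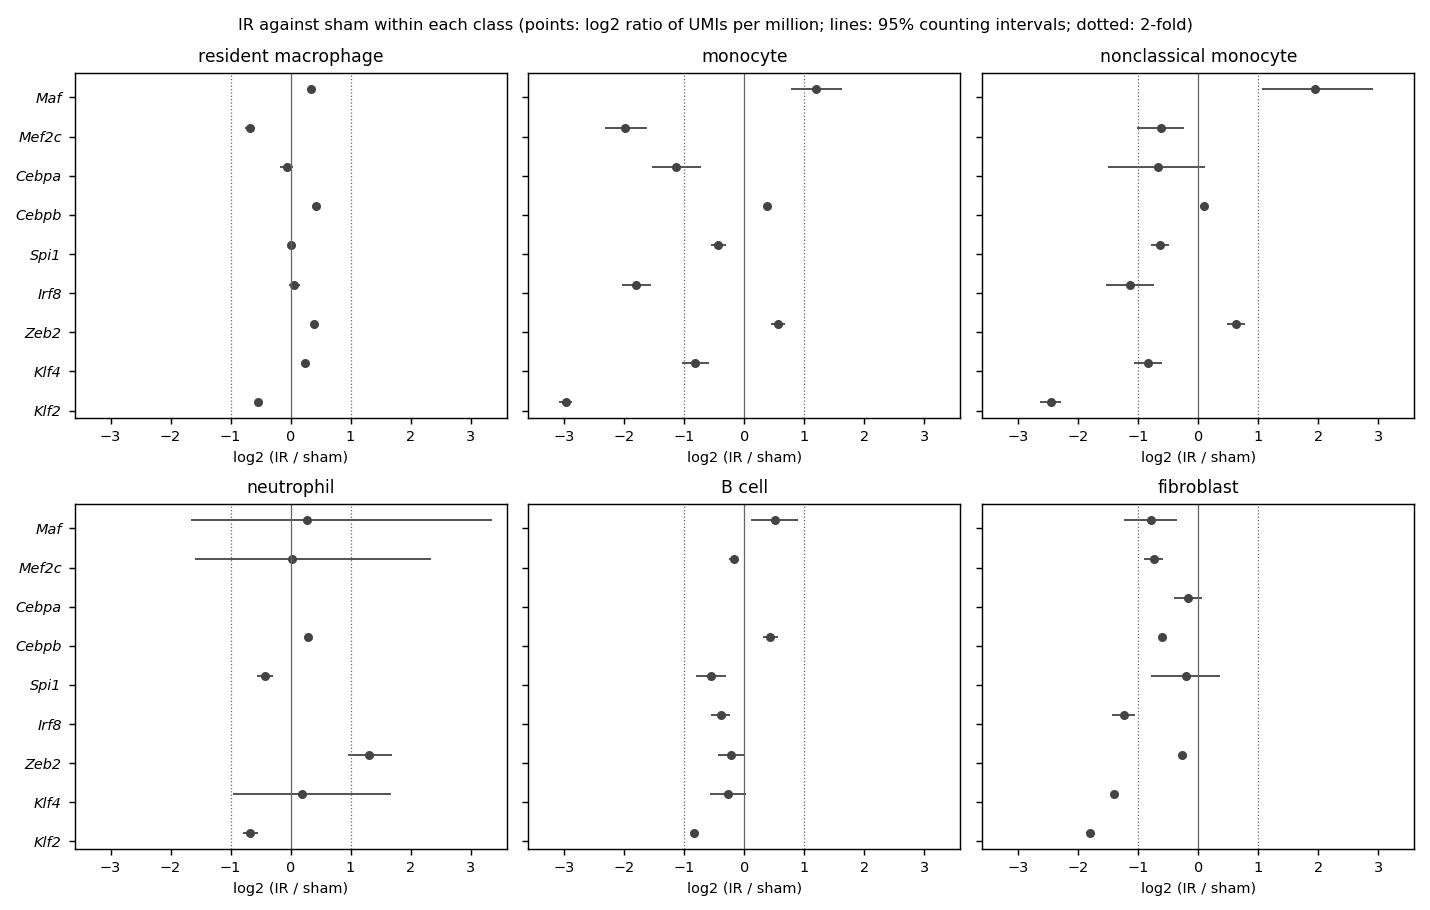
Log2 ratios of CPM between IR and sham for the 9 genes in resident macrophages, monocytes, nonclassical monocytes, neutrophils, B cells and fibroblasts. Bars are exact 95% counting intervals, and dotted lines mark 2-fold. Resident macrophages stay within 2-fold for all 9 genes, while Klf2 reaches −2.98 in monocytes and is below 0 in every class shown.

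Genes that respond to warming and enzymes during tissue dissociation are known to be raised by cell preparation, and KLF2, KLF4 and CEBPB are known to respond to stress as well. Of 14 such genes, 2 were past 2-fold higher in IR macrophages (Hspa1b 2.25 and Hspa1a 2.19 on the log2 scale) and none lower. In monocytes 7 were higher and none lower, with a median of 1.02 against −0.13 for all genes, led by Ier3 (3.66). In fibroblasts 9 of the 14 were lower and 1 higher, with a median of −1.20. Of all genes, 18.4% were past 2-fold in either direction in macrophages, 28.3% in monocytes and 26.1% in fibroblasts. In sham 11 of 14 were past 2-fold higher and 1 lower in macrophages against monocytes (median 1.70, against 0.04 for all genes, of which 29.8% were past 2-fold). Their part in the levels of the 9 genes was not tested.

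Within resident macrophages some members differed between the known subsets, Klf4 and Maf the most. Macrophages with at least 3 of Lyve1, Folr2, Timd4 and Cbr2, the long-lived type of cardiac macrophage, numbered 988 in sham and 372 in IR. MHC class II macrophages carried all of Cd74, H2-Aa, H2-Ab1 and H2-Eb1 and at most 1 of the Lyve1 set, and numbered 1343 and 278. The subsets were thus chosen to differ in the Lyve1 set. Klf4 was 868 CPM in the Lyve1-set cells and 399 CPM in the MHC class II cells in sham (log2 ratio 1.12, 1.05 to 1.19). In IR it was 901 and 448 CPM (1.01, 0.91 to 1.11). Maf was 553 and 285 CPM in sham (0.96, 0.87 to 1.04) and 653 and 304 CPM in IR (1.10, 0.98 to 1.23). Irf8 was the member most in favour of the MHC class II cells, with 130 against 223 CPM in sham (−0.78) and 163 against 240 CPM in IR (−0.56). Thus 1 member was past 2-fold in sham and 2 in IR, where 7.16% and 6.83% of all genes were. Spi1 (−0.22 and −0.03) and Cebpa (−0.21 and 0.08) differed little between the subsets.

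For Cebpb the libraries differed unequally in the subsets. It was 1508 CPM in sham and 2593 CPM in IR in the MHC class II macrophages (0.78, 0.73 to 0.83) but 1841 and 2036 CPM in the Lyve1-set macrophages (0.14, 0.10 to 0.19). Consequently, the ratio of the Lyve1-set to the MHC class II cells went from 0.29 in sham to −0.35 in IR. Klf2, by contrast, was lower in IR in both, with −0.62 and −0.54. Mef2c was lower by −0.78 and −0.46. None of the members was past 2-fold between the libraries in either subset, where 16.6% of all genes were in the Lyve1-set and 18.3% in the MHC class II macrophages.

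Interferon genes divided the macrophages further. In sham, 954 cells carried at least 3 of Ifit1, Ifit2, Ifit3, Isg15 and Rsad2, and in IR 53 did. Between the libraries these cells differed in Cebpb, at 1368 CPM in sham and 3155 CPM in IR (1.21), in Mef2c (−1.53, −1.91 to −1.17), in Klf2 (−1.49) and in Cebpa (−1.19), so 4 of 9 were past 2-fold where 32.4% of all genes were. In macrophages without any of these genes, 1098 in sham and 553 in IR, Cebpb was 2057 and 2069 CPM (0.01, −0.03 to 0.05). Klf2 was 1986 and 1334 CPM there (−0.57), as in all macrophages, and the higher Cebpb of the IR macrophages was thus not seen in this group. In sham, Cebpb was higher in cells without these genes than in those with at least 3, and in IR it was lower. Cells with 1 or 2 of the genes are in neither group. The groups rest on detected genes, and IR cells without them were deeper (median 8884 against 4337.5 UMIs).

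Among the IR macrophages, 639 carried at least 2 of the injury genes Lpl, Gdf15, Cd36 and Spp1, and 198 carried fewer. Cebpb was 2407 CPM in the former and 1788 CPM in the latter (0.43, 0.37 to 0.49). Klf2 (−0.39), Maf (−0.43) and Klf4 (−0.41) were lower in the former. None was past 2-fold, and 4.28% of all genes were. In sham, 420 macrophages carried at least 2 of the genes and 2623 fewer, and Cebpb was 1706 and 1714 CPM (−0.01, −0.05 to 0.04) and Klf2 1946 and 1979.6 CPM (interval of the log2 ratio −0.07 to 0.02) in them.

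**Figure D4:**
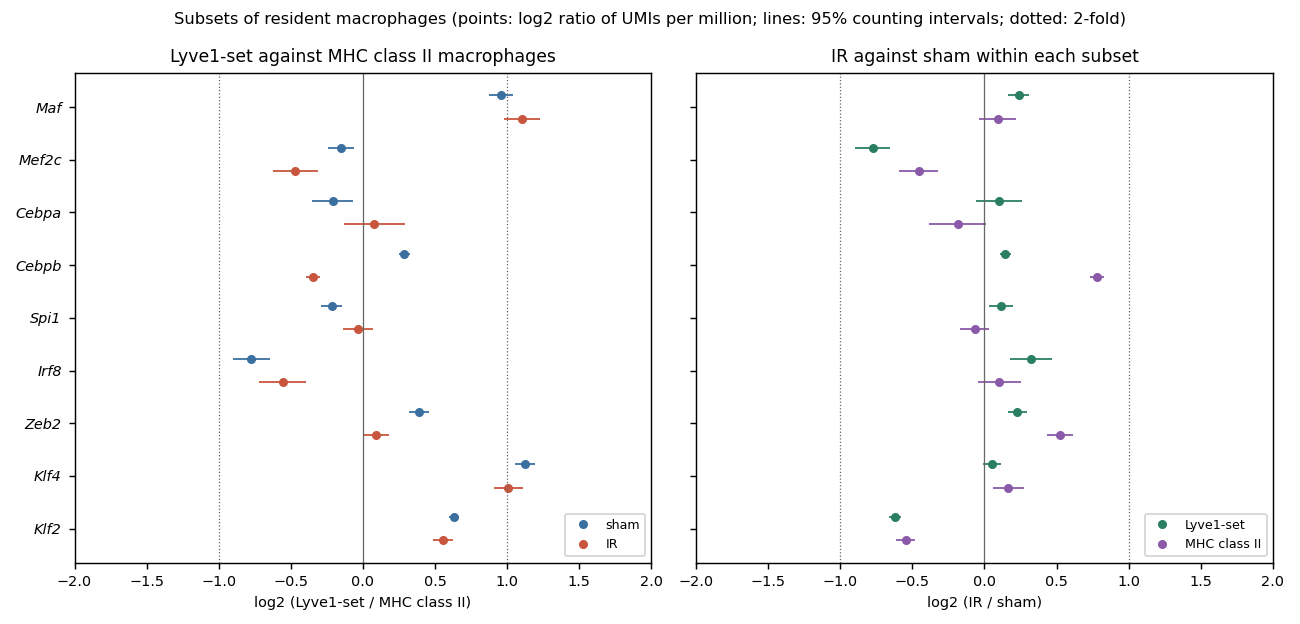
Log2 ratios of CPM of the 9 genes in subsets of resident macrophages, with exact 95% counting intervals and dotted lines at 2-fold. The ratios are of Lyve1-set over MHC class II macrophages in each library, and of IR over sham within each subset. Klf4 and Maf are higher in the Lyve1-set cells in both libraries. Cebpb in the MHC class II cells is higher in IR (2593 CPM) than in sham (1508 CPM).

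Other transcription factors of the same families and lineages were read beside the members. Of 30 such factors 29 were analysed, and 26 could be compared between IR and sham in macrophages. Of these, 6 were past 2-fold higher and 3 lower, where 18.4% of all genes were past 2-fold, with a median of 0.15 against 0.12 over all genes. Tfec (2.22), Nr1h3 (1.74), which encodes the oxysterol receptor LXRα, and Bhlhe40 (1.52) were the highest. Irf7 (−3.15) and Irf1 (−1.14), which take part in interferon responses, and Batf3 (−2.17), a dendritic cell factor, were the lowest. In monocytes 6 of 25 were higher and 2 lower, a share near the 28.3% of all genes. Among the former were Tfec (3.40) and Id2 (2.90). Irf7 was 1125 and 41.3 CPM there (−4.77), a larger ratio than that of Irf8, and Cebpg also fell below the line (−1.22). In neutrophils 5 of 22 were higher, led by Bhlhe40 (3.16), and 5 lower, led by Irf7 (−3.95), where 30.6% of all genes were past 2-fold.

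Macrophages were set apart from monocytes in sham by factors such as Bhlhe41 (3.13) and Klf6 (2.12) on the one side and Bhlhe40 (−2.77), Irf7 (−1.80) and Klf10 (−1.74) on the other, with 8 and 6 of 26 factors past 2-fold (29.8% of all genes). In IR the counts were 7 and 5 of 27 (33.4% of all genes), and Bhlhe41 (5.34), Spic (3.52), known from iron-recycling macrophages, and Nr1h3 (1.71) were highest. Against neutrophils, 9 of 25 were higher and 4 lower in sham, and 15 and 3 of 27 in IR, which is below the shares of all genes, 57.4% and 72.2%.

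Known targets were read beside the factors. Of genes that SPI1 is known to drive, 12 were read, such as Csf1r, Itgam and Cybb. In macrophages none was past 2-fold between IR and sham, where 18.4% of all genes were. Their median log2 ratio was −0.31, and Spi1 itself was not past 2-fold. In monocytes Csf2rb (1.63) and Fcgr3 (1.31) were higher and Lyz2 (−1.03) was lower, where 28.3% of all genes were past 2-fold. In neutrophils Csf2rb (1.58) was higher and Lyz2 (−2.38) lower, where 30.6% of all genes were past 2-fold. Of 6 genes that KLF2 is known to drive, those compared were lower in IR for 4 of 4 in monocytes (median −0.83), 4 of 4 in neutrophils (−1.47) and 2 of 5 in macrophages (0.21). They were lower for 4 of 4 in nonclassical monocytes (−0.57), 4 of 4 in endothelial cells (−0.3), 1 of 4 in fibroblasts (0.66) and 1 of 2 in mural cells (1.19). In these classes Klf2 itself was past 2-fold lower, as in monocytes. The medians over all genes ran from −0.13 in monocytes to 0.12 in macrophages across the classes named here. Itgb7 was past 2-fold lower in IR in monocytes (−1.78), in neutrophils (−2.21) and in macrophages (−1.20). In macrophages 1 of the 5 genes compared was past 2-fold higher and 1 lower, where 18.4% of all genes were past 2-fold. In neutrophils Thbd (−1.73) and Klf3 (−1.21) were past 2-fold lower as well, where Klf2 itself was at −0.68. Past 2-fold lower were 2 of 4 genes compared in monocytes and 4 of 4 in neutrophils. Of all genes, 28.3% and 30.6% were past 2-fold in either direction there.

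The genes whose levels ran most like a member's were sought over 22 profiles, the classes of each library with at least 50 cells, among 6667 genes. The profiles share libraries and class rules, so the correlations describe these points only. For Spi1, Pirb was among the nearest (Pearson's r = 0.965). Cebpa ran closest to Tmem106a (0.956), Cebpb to Prdx5 (0.938), Mef2c to Pkig (0.920) and Klf4 to Nav1 (0.899). The nearest genes were less close for Zeb2 (Zfp703, 0.861), Irf8 (Slamf7, 0.837), Klf2 (Samd9l, 0.833) and Maf (Nfatc2, 0.827).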

How the data were processed

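Left ventricular cells were profiled with droplet-based 3′ sequencing. The authors aligned reads to mm10 with Cell Ranger (version 3.1.0 per the file headers) and deposited raw counts of UMIs, 1 matrix per condition, with no normalization. The 9 genes, the gene lists and the class markers were chosen with earlier results of these data known. Barcodes with at least 200 genes and at most 30% mitochondrial UMIs were kept. The stated upper limit of 2500 genes, which leaves 9777 sham and 4880 IR barcodes, fewer than the study counts, was used as an alternative. Doublets were treated by leaving out cells that passed panels of different classes, except that cells passing the macrophage and monocyte panels alone were kept as a group of their own, nonclassical monocytes could pass the monocyte panel and B cells a dendritic one. The T cell panel rested on 3 markers, and Trac and Trbc2 were not used here. CPM were made from UMI sums of a class and its total. Ratios of them carry exact conditional intervals and shares Clopper–Pearson intervals, at 95%, for counting error only. A count of 0 was set to 3 UMIs, and a bound that pointed toward the group at 0 was left out. A gene was compared at 30 or more UMIs over both groups, and past 2-fold means a log2 ratio of at least 1 in size. No p-values were computed, because each condition is 1 library. Named members are all 9, and of each list up to 3 genes per direction, those with the largest ratios past 2-fold. Some genes that this rule names are not reported here. Like genes used log2(CPM + 10). For shares at equal depth, cells were thinned to 1000 UMIs and shallower cells left out (40 sham and 12 IR macrophages, 0 and 7 monocytes, 12 and 75 neutrophils). The statistics were tested on simulated data. Alternatives changed the gene and mitochondrial limits, the class rule, clustering, doublet scores, scaling, weighting of cells and the UMI floor. Positions are from GENCODE M21 on GRCm38. Python 3.11.15, numpy 2.4.6, scipy 1.17.1, pandas 2.3.3, igraph 0.11.9, leidenalg 0.10.2, matplotlib 3.10.9 and scikit-learn 1.9.0 were used.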

Additional observations from a re-analysis of the deposited data

Results flagged for a closer look

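The members Maf, Irf8 and Zeb2 were past 2-fold in opposite directions between IR and sham in different classes. The differences between classes were not tested. Maf was higher in IR in monocytes (log2 ratio 1.19), nonclassical monocytes (1.95), T cells (1.15) and NK cells (1.09), and lower in endothelial cells (−1.64), where it rested on 40 UMIs in sham and 8 in IR. The Maf level that macrophage-panel UMIs would bring to endothelial cells was 3.90 CPM of 43.1 in sham and 8.33 of 13.8 in IR. Irf8 was lower in monocytes (−1.8), nonclassical monocytes (−1.13) and fibroblasts (−1.25) and higher in endothelial cells (1.45), on 17 and 29 UMIs. Zeb2 was higher in neutrophils (1.31) and lower in endothelial cells (−1.02), on 39 and 12 UMIs. The endothelial class held 219 sham and 80 IR cells.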

How the results depend on the processing

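No paired analysis was possible because cells could not be traced to the numbered samples, and for the same reason no sample could be left out in turn. Of 61 log2 ratios of the members, none past 2-fold reversed under any alternative, and 30 to 32 of the 32 past 2-fold stayed so. The counts of members past 2-fold stayed within 1.5 times of those reported, except in neutrophils between IR and sham, where classes taken from clusters gave 2 instead of 1. The counts were 0 for macrophages in all settings and 4 to 6 for monocytes between the libraries. Between macrophages and monocytes they were 4 to 5 in sham and 6 to 7 in IR. The largest move, 2.42 on the log2 scale, was that of Irf8 between macrophages and neutrophils in sham under clusters (3.87), where neutrophils held 1 UMI in the reported classes. Single calls crossed the line for Cebpa in monocytes under the stricter class rule (−0.92) and Klf4 in monocytes under the upper gene limit (−1.06). Between macrophages and monocytes in sham, Cebpa passed it under clusters (1.19) and the stricter rule (1.33). In IR Cebpb missed it under the upper gene limit (−0.98), and Zeb2 against neutrophils missed it under clusters (0.88). Adding cells with both monocyte and neutrophil panels to monocytes, chosen after seeing the data, gave −2.33 for Klf2. Removing high doublet scores took out 1035 sham and 546 IR barcodes and left all 32 calls. Single-library values carry no replicate error, and low-count members such as Maf in endothelial cells or neutrophils are limited by depth.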
